A study of Mus musculus with 17 samples.

Results

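The 10 genes described here are the mouse major histocompatibility complex (MHC) class II genes and Ciita. They were taken from the deposited gene table by symbol, whatever their values, and all 10 were found among its 22558 genes. RNA of whole kidneys had been sequenced, 1 library for each of 17 male mice. The 5 Ctrl mice were wild-type C57BL/6, and the 6 Case mice were diabetic db/db mice of the line BKS.Cg-Dock7m +/+ Leprdb/J, in which the receptor for leptin is defective. The 6 Dapa mice were of the same db/db line and received dapagliflozin, which blocks renal glucose reabsorption by SGLT2; gavage began at an age of 8 weeks and lasted 6 weeks, with a daily dose of 1 mg/kg. Ctrl and Case mice received saline in place of the drug. Because Ctrl mice were C57BL/6 and not littermates of the db/db line, strain, MHC haplotype and diabetes cannot be told apart in comparisons with Ctrl. In whole kidney, fewer cells of a type and less RNA per cell cannot be told apart either.

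MHC class II molecules present peptides from the endosomes to CD4+ T cells. An alpha and a beta chain (A or E in the mouse) assemble in the endoplasmic reticulum with the invariant chain Cd74, which fills the groove and steers the complex to endosomes, where the chaperone DM exchanges the last fragment of Cd74 for a peptide. Ciita does not bind DNA by itself: it docks on the factors RFX, CREB and NF-Y at the X and Y boxes of class II promoters and is the rate-limiting switch of these genes. Dendritic cells, B cells and macrophages express them constitutively or readily, and interferon-gamma induces Ciita in other cells too, with Irf1 among the factors involved, renal tubular epithelium included.

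The libraries held 13039535 to 17779635 counts. Each of the 9 kidney markers examined (among them Lrp2 and Nphs1) was detected in all groups, with a summed level of 2158 to 3879 FPKM (fragments per kilobase of transcript, scaled to library size) over the 17 mice. The mutation of Lepr alters splicing and cannot be checked on counts per gene. Among the libraries, 5 stood apart in ratios of class II genes: in Ctrl 1, Ctrl 3, Ctrl 4, Case 6 and Dapa 7 the FPKM ratio of H2-DMb1 to H2-DMb2 was 6.44 to 25.2, against 0.895 to 3.11 in the other 12. In the same 5 libraries, the ratio of H2-Ea-ps to H2-Eb1 was 0.685 to 0.928 (1.64 to 2.9 in the other 12) and Rps18, a ribosomal protein gene of the same chromosome, was at 4.11 to 5.93 FPKM (0.568 to 2.39 in the other 12). Rps18-ps3, a pseudogene of Rps18 on another chromosome, differed in the opposite direction, at 5.7 to 11.7 FPKM against 13.8 to 21.4 FPKM. What sets these libraries apart was not tested, and since they cross the groups, the comparisons below are also given for the other 12 libraries (2 Ctrl, 5 Case and 5 Dapa).

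Of the 10 genes, 8 lie in the MHC on chromosome 17 of mm10, all between 34135182 (start of H2-DMa) and 34344643 (end of H2-Ea-ps), while Ciita lies on chromosome 16 (10488178 to 10527564, plus strand).

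The table of RefSeq promoters (GRCm38.p6, 300 bases each) had entries for 6 of the 10 genes. The 5 windows below are those with a match to a letter pattern of the X or Y box, the promoter elements at which Ciita docks. Each is 100 bases, 5′ to 3′ on the strand of the gene, and capitals mark matches to the X box core AACNGATG and the Y box TGATTGG, searched on both strands, with letters chosen after these sequences had been seen.
H2-Aa (chr17:34287834-34287933, minus strand): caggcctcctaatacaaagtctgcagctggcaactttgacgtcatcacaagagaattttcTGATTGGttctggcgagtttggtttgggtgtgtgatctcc
H2-Eb1 (chr17:34305746-34305845, plus strand): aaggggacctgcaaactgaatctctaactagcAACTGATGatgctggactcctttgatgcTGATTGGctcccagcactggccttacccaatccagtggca
H2-Eb2 (chr17:34325513-34325612, plus strand): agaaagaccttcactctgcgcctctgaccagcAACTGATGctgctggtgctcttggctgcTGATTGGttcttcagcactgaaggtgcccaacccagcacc
H2-DMb1 (chr17:34153068-34153167, plus strand): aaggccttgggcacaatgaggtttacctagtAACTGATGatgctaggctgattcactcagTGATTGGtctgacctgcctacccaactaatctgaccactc
H2-DMb2 (chr17:34145097-34145196, plus strand): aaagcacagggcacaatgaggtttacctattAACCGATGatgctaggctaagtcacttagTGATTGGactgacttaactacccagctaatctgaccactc
The 2 motifs stood 20 bases apart in H2-Eb1 and H2-Eb2 and 21 bases apart in H2-DMb1 and H2-DMb2. H2-Aa matched the letters of the Y box only, 50 bases before its start. The X box letters were chosen after these sequences had been seen, so no match does not mean no X box. Neither of 2 entries for H2-DMa held a match to either motif. These entries (34122582 to 34122881 and 34125268 to 34125567) end before 34135182, the start of H2-DMa given above. The bases at that start were therefore not searched. Of 32851 promoters of the same length, 2.32% held the X box core, 7.82% the Y box and 0.186% both. A match is a description of letters, not of binding.

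Mouse by mouse, the Case group was not uniform. In Case 1, 2, 3 and 5 the level of every one of the 10 genes was above that of every Ctrl mouse. In Case 4 this held for 3 of the 10, and in Case 6 for 0 of the 10, with 8 of them below every Ctrl mouse. Relative to the Ctrl mean, the 9 genes detected in Ctrl ranged from 4.96-fold (Cd74) to 36.2-fold (H2-DMb2) in Case 1 and from 5.12-fold (H2-Aa) to 34.4-fold (H2-DMb2) in Case 3. The span was 1.88-fold (Ciita) to 11.5-fold (H2-DMb2) in Case 2 and 1.82-fold (H2-Aa) to 26.1-fold (Ciita) in Case 5. Case 4 lay at 0.629 to 1.98 times the Ctrl mean and Case 6 at 0.3 to 1.52 times. Dapa mice split in a similar way at a lower level: Dapa 8 exceeded every Ctrl mouse in 9 of the 10 genes and Dapa 7 in 7, whereas Dapa 9 did so in 3 and Dapa 10, 11 and 12 in 1 each. The share of all genes above every Ctrl mouse in each of these mice is not given here, so the small counts cannot be judged.

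**Figure D1:**
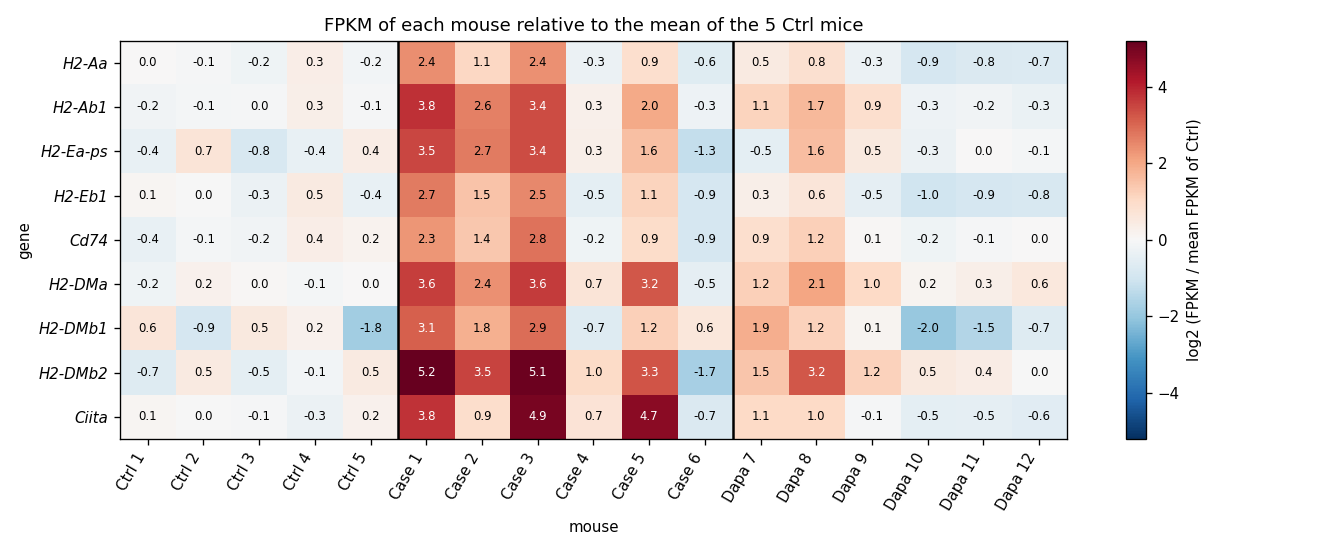
Level of 9 genes (rows) in the kidney of each mouse (columns) as log2 of its FPKM over the mean FPKM of the 5 Ctrl mice; red is above and blue below that mean, vertical lines divide Ctrl, Case and Dapa, and H2-Eb2, at 0 in every Ctrl mouse, is left out. Case 1, 2, 3 and 5 are above the Ctrl mean in every row, from 1.82-fold to 36.2-fold, and Case 6 is below it in all rows but H2-DMb1.

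Ciita, the transactivator, was low and even in Ctrl, at 0.715, 0.65, 0.635, 0.54 and 0.785 FPKM in mice 1 to 5. In Case it was lowest in mouse 6 (0.396 FPKM), with a median of 5.11 and a highest value of 20.1 FPKM in mouse 3. Thus 3 Case mice (1, 3 and 5) had 8.96 to 20.1 FPKM, and the other 3 had 0.396 to 1.25, against 0.54 to 0.785 in Ctrl. Dapa mice had a lowest value of 0.438, a median of 0.556 and a highest of 1.38 FPKM, so that every Dapa mouse was below Case 1, 3 and 5.

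Cd74, the invariant chain (chromosome 18, 60803848 to 60812646, plus strand), was at 33.3, 40.5, 38.1, 55.1 and 49.1 FPKM in the Ctrl mice. Case mice ranged from 23.4 (mouse 6) over a median of 98.0 to 307 FPKM (mouse 3), and Dapa mice from 36.8 over 44.6 to 102 FPKM (mouse 8). Case 4 lay among the Ctrl mice, Case 6 below them and the other 4 Case mice above. The order of the mice differed from that of Ciita: Case 5 had the second highest Ciita of all mice but only the fourth highest Cd74 within Case (82.7 FPKM).

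Of the classical chains, H2-Ab1 (A beta) was at 10.2, 10.7, 11.0, 14.2 and 11.0 FPKM in Ctrl. Its Case values ran from 9.56 (mouse 6) over a median of 58.0 to 158 FPKM (mouse 1), and its Dapa values from 9.09 over 15.7 to 36.8 FPKM (mouse 8). H2-Aa (A alpha) was at 12.4, 11.7, 10.5, 15.5 and 11.0 FPKM in Ctrl. Case gave 7.99, 23.9 and 65.1 FPKM for H2-Aa as its lowest, median and highest value, and Dapa gave 6.73, 8.68 and 21.6 FPKM. The top of both A chains was thus Case 1, followed by Case 3, 2, 5, 4 and 6 in the same order.

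H2-Ea-ps, the E alpha gene, is annotated as a polymorphic pseudogene, and C57BL/6 mice are known to make no E alpha chain, yet counts were found in every Ctrl library (190 to 530). Its Ctrl values were 22.2, 47.1, 16.5, 22.5 and 38.4 FPKM. Case values reached from 12.3 over a median of 140 to 326 FPKM, and Dapa values from 20.8 over 28.4 to 90.0 FPKM. H2-Eb1 (E beta) was at 25.5, 23.9, 19.6, 32.9 and 18.2 FPKM in Ctrl. In Case it lay at 13.3 (lowest), 59.8 (median) and 157 FPKM (highest), and in Dapa at 11.6, 15.3 and 37.7 FPKM. For both E chains, Case 1, 3, 2 and 5 held the upper places within Case, in that order. H2-Eb2, a second E beta gene, had counts in those 4 Case mice alone, 13, 3, 12 and 4 in Case 1, 2, 3 and 5, against 0 in each other library. A count of 0 allows up to 3 counts (counting error only), so no fold is given.

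The peptide exchange chaperone is a pair of H2-DMa (alpha) with H2-DMb1 or H2-DMb2 (beta). H2-DMa was at 1.76, 2.41, 2.14, 1.93 and 2.10 FPKM in Ctrl, with an SD of 11.7% of the mean. It reached from 1.51 over a median of 15.0 to 25.6 FPKM in Case, and from 2.31 over 3.67 to 8.65 FPKM in Dapa. All but 1 Case mouse (mouse 6) were above every Ctrl mouse, as were 5 of 6 Dapa mice, the exception being Dapa 10.

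H2-DMb2 was at 0.415, 0.918, 0.472, 0.61 and 0.931 FPKM in Ctrl. Its Case values were 0.201 at the lowest (mouse 6), 7.04 at the median and 24.2 FPKM at the highest (mouse 1), and its Dapa values were 0.669, 1.25 and 6.36 FPKM (mouse 8). H2-DMb1 varied most within Ctrl, at 5.13, 1.80, 4.78, 3.92 and 0.957 FPKM, with the 3 high values in the libraries set apart above. It lay at 2.09, 9.81 and 28.5 FPKM (lowest, median, highest) in Case and at 0.852, 2.88 and 12.3 FPKM in Dapa. The transcripts of H2-DMb1 share 22.7% of their 50-base stretches with H2-DMb2, so the division of reads between these 2 neighbours is uncertain. Those of H2-DMb2 share 24.8% of theirs with other genes, some of them outside the class II genes.

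**Figure D2:**
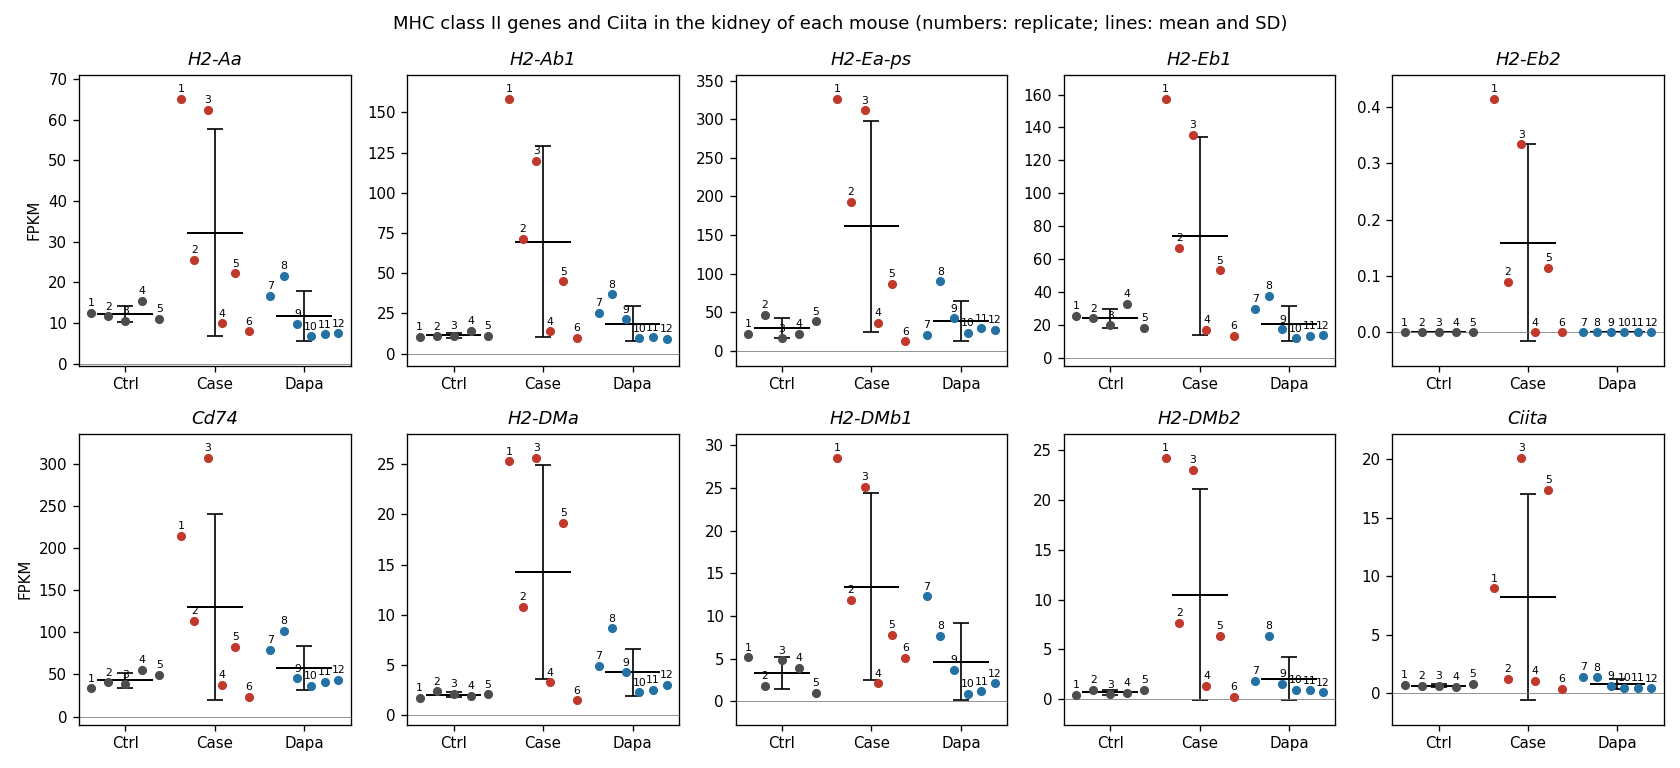
FPKM (linear vertical axes, one for each gene) of the 10 genes in Ctrl (grey), Case (red) and Dapa (blue) mice, with replicate numbers beside the points and black lines for the group mean and SD. In each panel Case is the widest group, with mice 1 and 3 among its 3 highest, mouse 5 near the top for Ciita (17.4 FPKM) and H2-DMa (19.1 FPKM), and mice 4 and 6 near the Ctrl mice.

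The first comparison asked which class II genes differed between diabetic and control kidneys. Of the 9 genes that passed the filter on low counts (H2-Eb2 did not), 5 were higher in Case than in Ctrl at q under 0.05 and 0 lower by the quasi-likelihood test of edgeR, adjusted after Benjamini and Hochberg over 14582 genes; of all these genes 13.0% were called, 6.09% as higher and 6.91% as lower. H2-DMb2 had the largest fitted log2 fold change, 3.86 ± 0.91 (SE; edgeR, q = 0.017), from a Ctrl mean of 0.669 ± 0.244 to a Case mean of 10.5 ± 10.6 FPKM (SD). Ciita followed at 3.51 ± 0.89 (edgeR, q = 0.0237), from 0.665 ± 0.0916 to 8.19 ± 8.79 FPKM. In both genes the SD over the Case mice was as large as the mean.

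H2-DMa rose by 2.68 ± 0.60 on the log2 scale (edgeR, q = 0.0137), H2-Ab1 by 2.51 ± 0.60 (q = 0.0182) and H2-Ea-ps by 2.35 ± 0.68 (q = 0.0394). The other 4 did not pass: H2-DMb1 had a log2 fold change of 1.90 ± 0.62 (edgeR, q = 0.0587), Cd74 of 1.48 ± 0.52 (q = 0.0789), H2-Eb1 of 1.52 ± 0.54 (q = 0.0825) and H2-Aa of 1.3 ± 0.47 (q = 0.0878). Their unadjusted p was under 0.05 as for the called genes, a level that 28.7% of all genes reached. The median log2 fold change of the 9 genes was 2.35, against 0.03 over all genes tested. None of the 9 had groups without overlap, since Case 4 or Case 6 always lay among the Ctrl mice or below them (4.97% of all genes had Case wholly above Ctrl).

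These calls depended on single mice and on the test. Without Case 4, 9 of 9 passed (10.9% of all genes), and without Case 6, 8 of 9 did (11.2% of all genes); without Ctrl 1, 2, 3 or 5, 3 did (7.87%, 7.80%, 6.80% and 7.62% of all genes). Without Ctrl 4, Case 1, Case 2 or Case 3, 4 passed (13.0%, 12.0%, 9.44% and 11.8% of all genes), and without Case 5, 5 did (14.9%). With no filter on low counts, 5 of 10 passed (7.24% of all genes). H2-Ab1, H2-DMa and H2-DMb2 passed in each of the 11 fits that left out 1 mouse, Ciita in 7 and H2-Ea-ps in 3. DESeq2 called 6 (18.4% of all genes) and edgeR's exact test 9 (15.4%), whereas limma called 0 on log2(FPKM + 1) (12.1%) and voom with sample weights 0 (15.7%). In the 12 libraries that did not stand apart, edgeR's quasi-likelihood test called 0 of 10 with 2 Ctrl mice left (1.39% of all genes). The 9 genes above had log2 fold changes of 1.61 to 3.65 there and an unadjusted p of 0.0043 to 0.0427. H2-Eb2, with 0 counts in Ctrl, passed the filter there through its Case counts alone, so its fit is not given. Of the 9, H2-DMb1 moved the most, from 1.90 to 3.33 (edgeR, q = 0.144). Another fit held a term for 7 libraries in which the counts and FPKM of 3 other genes disagreed (Ctrl 1, 3, 4, Case 1, Dapa 10, 11, 12). Its Ctrl libraries were the same as those that stood apart, so these 2 alternatives overlap. With the term H2-DMb1 passed (2.69, edgeR, q = 0.0145, 8.36% of all genes called), whereas H2-Ea-ps did not (q = 0.0607), so that 5 of 9 passed there too.

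**Figure D3:**
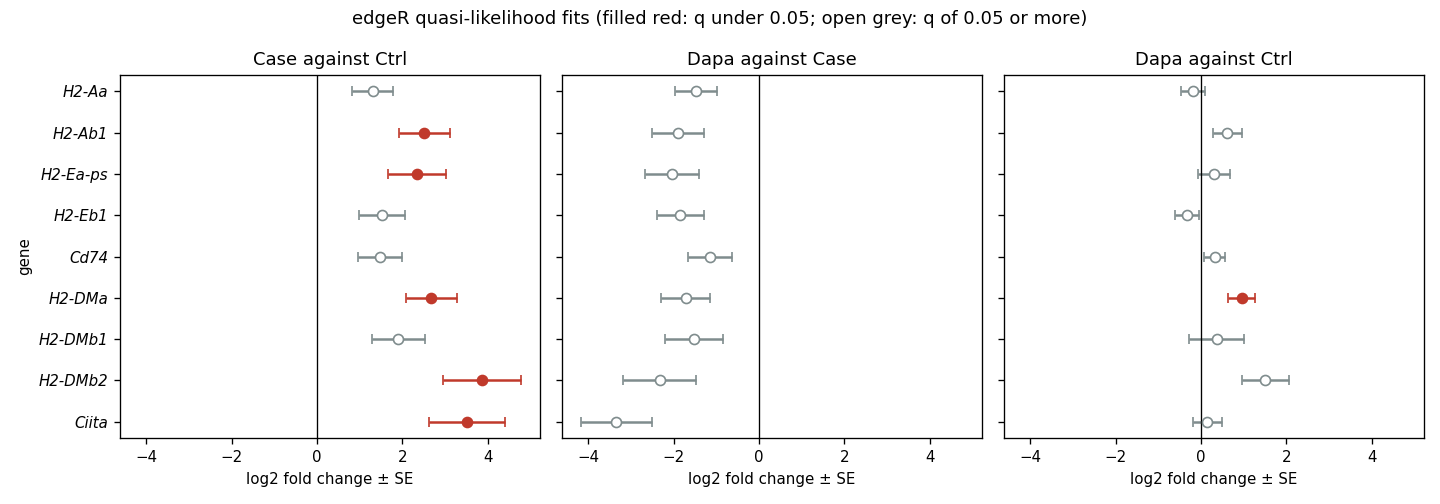
Log2 fold change (horizontal axis) with its standard error for 9 genes in the 3 comparisons, from edgeR's quasi-likelihood fits; filled red points have q under 0.05 and open grey points do not. All 9 points lie right of 0 for Case against Ctrl (5 of them red) and left of 0 for Dapa against Case (0 red), while those for Dapa against Ctrl lie from -0.33 to 1.51 with H2-DMa alone in red.

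The second comparison asked what differed in treated db/db kidneys. All 9 genes that passed the filter had lower fitted levels in Dapa than in Case, with a median log2 fold change of -1.85 (-0.01 over all 14573 genes), but edgeR's quasi-likelihood test called 0 of them at q under 0.05, as it called 0% of all genes. All 9 had an unadjusted p under 0.05 in the lower direction, which 6.66% of all genes had. Ciita was the furthest, with a log2 fold change of -3.34 ± 0.83 (edgeR, q = 0.197), and it was the one gene of the 9 that DESeq2 (q = 0.0107, with 1.39% of all genes called) and edgeR's exact test (q = 0.00887, with 0.858% called) took as lower. H2-DMb2 was at -2.33 ± 0.85 (-3.12 without Dapa 8), H2-Ea-ps at -2.04 ± 0.64, H2-Ab1 at -1.89 ± 0.61 and H2-Eb1 at -1.85 ± 0.55. H2-DMa (-1.72 ± 0.57), H2-DMb1 (-1.53 ± 0.68), H2-Aa (-1.47 ± 0.49) and Cd74 (-1.15 ± 0.51) completed the set, and q over the 9 was 0.197 to 0.367. In the 12 libraries (5 Case, 5 Dapa) the log2 fold changes were -1.47 to -3.81, and edgeR again called 0 of the 9 (0% of all genes), with the lowest q at 0.0727 for Ciita and H2-DMb1 at -2.26 in place of -1.53. Case and Dapa overlapped in each gene, since Case 6 always lay below the highest Dapa mouse (0.165% of all genes had Dapa wholly below Case).

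The third comparison set treated db/db mice against Ctrl and shares its groups with the first and the second. Of the 9 genes tested, H2-DMa was higher in Dapa, with a log2 fold change of 0.95 ± 0.31 (edgeR, q = 0.0335) from a mean of 2.07 ± 0.241 to 4.30 ± 2.36 FPKM; 29.1% of all 14647 genes were called, 14.2% as higher and 14.9% as lower. This call was lost without Dapa 8 or without Ctrl 1, 3, 4 or 5, and in the 12 libraries (log2 fold change 0.79 ± 0.51, edgeR, q = 0.324). In these 12 libraries edgeR called 0 of the 9 at q under 0.05, against 12.8% of all genes. There, 0 of the 9 had an unadjusted p under 0.05. H2-DMb2 had a log2 fold change of 1.51 ± 0.55 (edgeR, q = 0.0549), and DESeq2 (q = 0.0152, 33.5% of all genes called) and edgeR's exact test (q = 0.0271, 30.5% called) passed it. Without Dapa 8 its log2 fold change was 0.73 (edgeR, q = 0.133, 27.0% of all genes called), and in the 12 libraries that of H2-DMb1 was 1.06 in place of 0.37. The remaining 7 had log2 fold changes of -0.33 (H2-Eb1) to 0.61 (H2-Ab1) and q of 0.19 to 0.764. The median over the 9 genes was 0.32, against 0.02 over all genes.

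Ratios within a mouse compared partner chains on one scale, FPKM over FPKM, and are given as values with no test. H2-Aa to H2-Ab1, the pair that forms the A molecule, was 1.22, 1.09, 0.948, 1.09 and 1.00 in Ctrl. It was 0.36 to 0.836 in Case (mean 0.558 ± 0.184, SD, n = 6) and 0.465 to 0.823 in Dapa (0.66 ± 0.122), so every db/db mouse lay below every Ctrl mouse, also Case 4, Case 6 and Dapa 10 to 12 with their low levels. Cd74 to H2-Ab1 was 3.27 to 4.48 in Ctrl and 1.35 to 2.71 in Case, which did not overlap, and 2.13 to 4.83 in Dapa, which overlapped both. Reads had been aligned to mm10, a C57BL/6 genome; the strain differs between Ctrl and the other groups, and its part in these ratios cannot be told apart from that of diabetes.

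H2-Ea-ps to H2-Eb1 and H2-DMa to H2-DMb1 did not follow the groups. The latter was 0.298 to 0.492 in the 5 libraries that stood apart and 0.886 to 2.71 in the other 12. Ciita to Cd74 and Ciita to H2-Ab1 were ratios added after the values had been seen. Ciita to Cd74 was 0.00981 to 0.0215 in Ctrl and 0.00998 to 0.0175 in Dapa. In Case it was 0.0418 in mouse 1, 0.011 in mouse 2, 0.0655 in mouse 3, 0.0293 in mouse 4, 0.21 in mouse 5 and 0.0169 in mouse 6. Case 5 therefore had the highest Ciita relative to Cd74 of all 17 mice, and Case 2, with class II genes above every Ctrl mouse, had a ratio within the Ctrl range. Ciita to H2-Ab1 was 0.0381 to 0.0716 in Ctrl, 0.0299 to 0.0549 in Dapa, and 0.0566, 0.0176, 0.168, 0.0795, 0.387 and 0.0414 in Case 1 to 6. On that scale Case 5 was again the highest, Case 1 was within the Ctrl range and Case 2 was the lowest of all 17 mice.

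**Figure D4:**
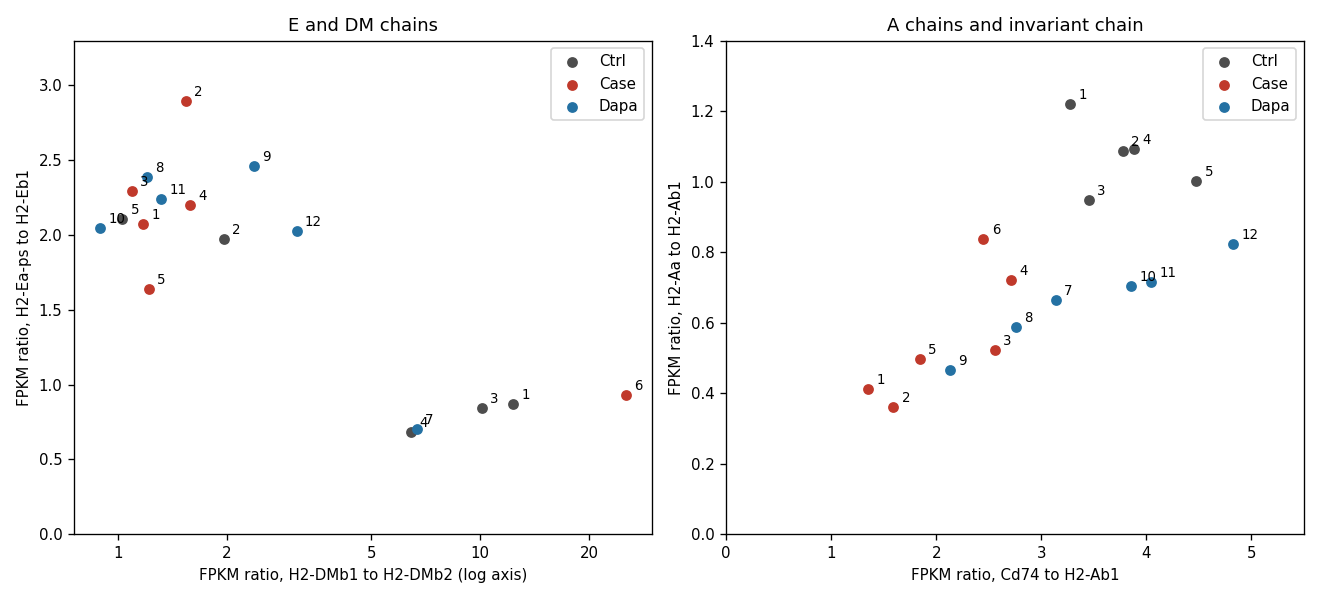
FPKM ratios of each mouse (points with replicate numbers; grey Ctrl, red Case, blue Dapa). Left, H2-Ea-ps to H2-Eb1 against H2-DMb1 to H2-DMb2 (log axis), where Ctrl 1, 3 and 4, Case 6 and Dapa 7 lie apart at 6.44 or more on the horizontal axis and 0.928 or less on the vertical; right, H2-Aa to H2-Ab1 against Cd74 to H2-Ab1, where the 5 Ctrl mice lie above all db/db mice on the vertical axis, at 0.948 to 1.22.

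Upstream of the class II genes, genes of the interferon-gamma input were read mouse by mouse. Irf1, a transcription factor that interferon-gamma induces and that acts on Ciita, was at 1.01 to 2.41 FPKM in Ctrl and at 1.44 to 2.33 FPKM in Dapa. In Case it was at 5.51, 4.18, 17.3, 2.62, 10.3 and 1.45 FPKM in mice 1 to 6, so that Case 3, 5 and 1 were highest, as for Ciita. It rose in Case against Ctrl with a log2 fold change of 2.00 ± 0.53 (edgeR, q = 0.0277), and in Dapa against Case it was at -1.86 ± 0.45 (q = 0.194). Ifng itself, the ligand, was listed above 0 in Case 3 (0.305 FPKM), Case 5 (0.21 FPKM) and Case 4 (0.0522 FPKM) and at 0 in the other 14 mice. The receptor chains Ifngr1 and Ifngr2 had log2 fold changes of 0.00 ± 0.11 and -0.04 ± 0.13 in Case against Ctrl (edgeR, q = 0.986 and 0.858). The kinase Jak1 was lower in Dapa against Ctrl (-0.33 ± 0.08, edgeR, q = 0.00855).

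Of the 7 factors and subunits on which Ciita docks (Rfx5, Rfxap, Rfxank, Nfya, Nfyb, Nfyc and Creb1), edgeR called 0 in Case against Ctrl, with 1 at an unadjusted p under 0.05 and a median log2 fold change of -0.04. It called 0 in Dapa against Case as well, with 2 at an unadjusted p under 0.05. Of all genes, 13.0% and 0% were called in these 2 comparisons, and 28.7% and 12.9% had an unadjusted p under 0.05. Against Ctrl, where 29.1% of all genes were called, 2 of the 7 were lower in Dapa: Nfya by -1.23 ± 0.16 (edgeR, q = 0.000361) and Rfxank by -0.56 ± 0.14 (q = 0.00938). Nfya, a DNA-binding subunit of NF-Y, was at 0.684 to 1.33 FPKM in Dapa and at 1.72 to 2.39 FPKM in Ctrl, which did not overlap (4.74% of all genes had Dapa wholly below Ctrl). The same shares of all genes stand beside the counts of the other lists. For Dapa against Ctrl, the share at an unadjusted p under 0.05 is not given.

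Downstream, the 8 proteases and helpers of lysosomal processing gave 1 higher and 1 lower gene in Case against Ctrl, with a median log2 fold change of 0.13. Ctsb (cathepsin B) was higher (0.35 ± 0.09, edgeR, q = 0.0271) and Ctsh (cathepsin H) lower (-0.49 ± 0.14, q = 0.033). Ctss, the cathepsin that trims Cd74 in antigen-presenting cells, was at 34.1 FPKM in Case 3 and at 4.97 to 8.87 FPKM in the other Case mice, against 4.24 to 8.36 in Ctrl. In Dapa against Case 0 of the 8 passed in edgeR (2 at an unadjusted p under 0.05), and in Dapa against Ctrl Ctsh alone did, as lower (-0.47 ± 0.13, q = 0.0199). Of the DM inhibitors and turnover genes 1 of 5 could be tested (Cd83), and of the costimulatory genes 2 of 3 (Cd40 and Cd86); edgeR called 0 of these in any comparison, also at an unadjusted p under 0.05. Cd40 was at a log2 fold change of 0.47 ± 0.31 and Cd86 at 0.63 ± 0.36 in Case against Ctrl.

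Markers of the cells that carry class II constitutively were read beside these values. Summed over 10 macrophage markers, Ctrl mice had 27.6 to 47.6 FPKM, Case mice 29.5 to 206 and Dapa mice 26.3 to 63.2, and none of the markers was at 0 throughout a group. Case 3 (206 FPKM) was the highest of all 17 mice in 10 of 10 markers, Lyz2 among them at 99.3 FPKM. Case 1 (57.3 FPKM), Case 2 (58.7), Dapa 8 (63.2) and Dapa 12 (52.0) were also above the Ctrl range. Dapa 12 had a median of 0.796 times the Ctrl mean over the 9 class II genes detected in Ctrl, and Case 5 was within the Ctrl range of macrophage markers at 32.3 FPKM, with its 10 class II genes above every Ctrl mouse. EdgeR called 1 of the 10 as higher in Case, Cd14 (1.41 ± 0.38, q = 0.0284), 0 in Dapa against Case (0 at an unadjusted p under 0.05), and Cd14 as higher in Dapa against Ctrl (1.04 ± 0.29, q = 0.019). The median log2 fold change of the 10 was 0.59 in Case against Ctrl, with 2 at an unadjusted p under 0.05. It was -0.47 in Dapa against Case and 0.10 in Dapa against Ctrl. Without Case 3 the fitted log2 fold changes for Case against Ctrl were 1.04 for Cd74 (q = 0.158), 2.29 for H2-Ab1 (q = 0.0316) and 3.03 for Ciita (q = 0.0404), and 4 of 9 class II genes passed in edgeR.

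Dendritic cell markers (10, of which 6 passed the filter in Case against Ctrl) summed to 3.15 to 5.76 FPKM in Ctrl, 3.55 to 9.26 in Case and 3.06 to 4.6 in Dapa, with the 2 highest sums in Case 3 (9.26) and Case 5 (7.9). Most of these 2 sums was Irf8, a transcription factor, at 5.16 FPKM in Case 3 and 5.28 FPKM in Case 5, against 1.36 to 1.75 FPKM in Ctrl. Of the 6 tested, edgeR called 1 in Case against Ctrl, the transcription factor Batf3, as higher (1.51 ± 0.37, q = 0.0195), and the median log2 fold change was 0.09, with 4 of the 6 at an unadjusted p under 0.05. Irf8 (0.80 ± 0.34) and Zbtb46 (0.47 ± 0.17) had positive log2 fold changes that did not pass (edgeR, q = 0.138 and 0.0854). Clec10a (-1.19 ± 0.49), Itgax (-0.34 ± 0.36) and Clec9a (-0.29 ± 0.70) had negative log2 fold changes that did not pass in edgeR (q = 0.129, 0.578 and 0.826). Cd209a, which did not pass the filter, was at 0.281 to 1.12 FPKM in Ctrl and at 0 to 0.179 FPKM in Case, and Flt3, also not tested, at a mean of 0.111 ± 0.0608 FPKM in Ctrl and 0.0344 ± 0.0328 FPKM in Case. Against Ctrl, Dapa gave 1 higher gene, Batf3 (1.45 ± 0.49, edgeR, q = 0.0422), and 2 lower, Clec10a (-2.36 ± 0.57, q = 0.0092) and Clec9a (-1.68 ± 0.52, q = 0.0289). In Dapa against Case edgeR called 0 of 4 tested, with 1 at an unadjusted p under 0.05.

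B cell markers were close to the limit of detection in every mouse. The 8 B cell markers together came to 0.329 to 1.45 FPKM, with Ms4a1 at no more than 0.0815 FPKM. The 9 T cell markers came to 0.38 to 2.86 FPKM and the 6 NK cell markers to 0.379 to 1.66 FPKM. Case 1, with the highest H2-Ab1, had the lowest sum of B cell markers (0.329 FPKM) and of T cell markers (0.38 FPKM) of all mice. Of these 3 lists, at most 1, 3 and 1 genes could be tested, and edgeR called 1 gene, the T cell kinase Lck in Dapa against Ctrl (0.96 ± 0.32, q = 0.0415); T cell markers had 2, 1 and 1 genes at an unadjusted p under 0.05 in the 3 comparisons in the order above, the other 2 lists 0. The 6 endothelial markers had 51.0 to 93.5 FPKM in Ctrl, 73.7 to 111 in Case and 69.7 to 134 in Dapa, with 0 called by edgeR in each comparison and 1, 1 and 3 at an unadjusted p under 0.05, in the same order. Of 9 kidney markers, edgeR called 2 higher (Nphs1 and Aqp2) and 1 lower (Lrp2, -0.98 ± 0.17) in Case against Ctrl, 0 in Dapa against Case (0 at an unadjusted p under 0.05), and 3 higher and 2 lower in Dapa against Ctrl. The part of these cell types in the class II levels was not tested.

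**Figure D5:**
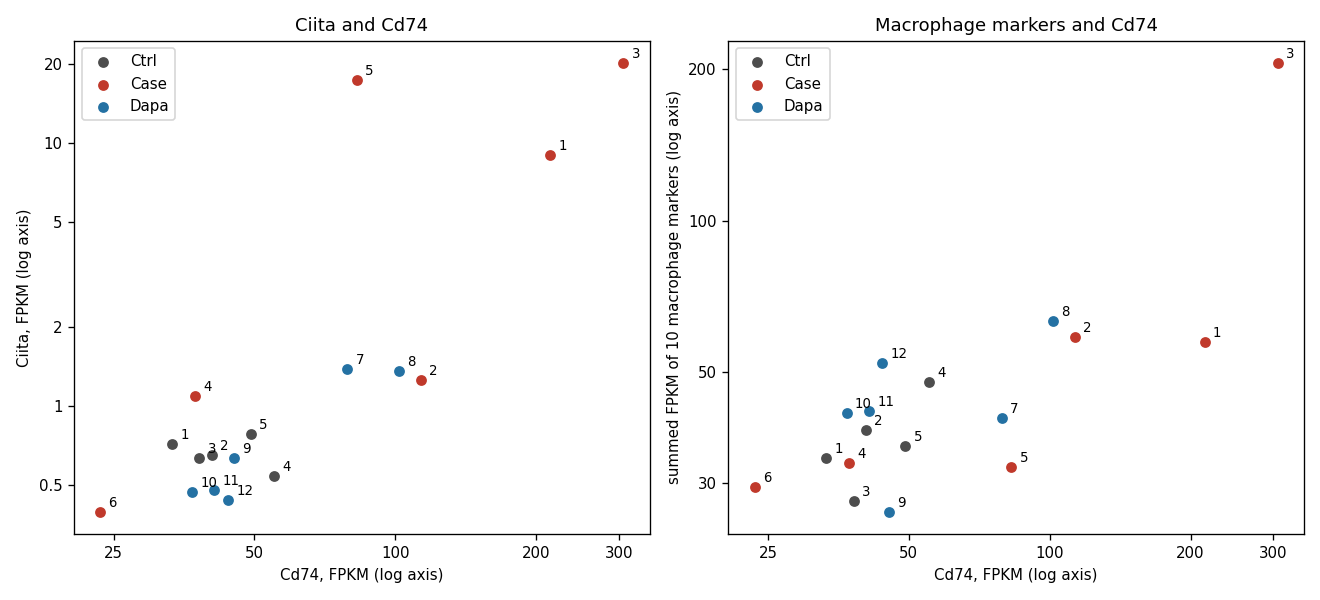
Each mouse by its Cd74 level (horizontal, FPKM, log axis) against Ciita (left, FPKM, log axis) and against the summed FPKM of 10 macrophage markers (right, log axis), with replicate numbers; grey is Ctrl, red Case and blue Dapa. On the left Case 5 lies high above mice of like Cd74, at 17.4 FPKM of Ciita; on the right Case 3 lies alone at the top (206 FPKM) and Case 5 lies to the right of every Ctrl mouse but within their vertical range (32.3 FPKM).

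Genes other than the 10 whose pattern was most like that of Cd74 or Ciita were sought over the 12 db/db mice among 11522 genes with a mean of at least 1 FPKM there, by Pearson's r on log2(FPKM + 1), as a description. For Ciita they were the interferon-inducible GTPases Igtp (r = 0.994), Irgm1 (0.992) and Irgm2 (0.991), followed by Tapbpl (0.985) and the peptide transporter subunit Tap1 (0.984) of the class I pathway. Igtp had a median of 26.2 and a highest value of 151 FPKM in Case, against 1.91 to 3.51 in Ctrl and 2.05 to 4.57 in Dapa. For Cd74 they were Pappa (0.964), H2-Q4 (0.95), B2m (0.949), Bst2 (0.949) and Phip (0.939), among which H2-Q4 and B2m encode class I molecules. B2m was at 204 to 1111 FPKM in Case, against 251 to 287 in Ctrl and 199 to 550 in Dapa. Within the class II genes, r to Cd74 was 0.967 for H2-DMb2, 0.964 for H2-Aa and 0.957 for H2-Eb1, and 0.787 for Ciita. These mice share 1 group difference and a few high Case libraries, which every such r contains.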

How the data were processed

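Each of the 17 kidney libraries came from 1 mouse (5 Ctrl, 6 Case, 6 Dapa). The authors selected mRNA on oligo(dT) beads for stranded libraries, used HISAT2 with mm10 for alignment and Stringtie for read counts per gene; strand use in counting is not given in the sources used here. The table deposited by the authors holds a read count and an FPKM value per gene and mouse. The deposited FPKM could be rebuilt from the count, the sum of the library and the length of the gene with a deviation of at most 0.00333%, which leaves no room for a TMM factor. For 3 genes with entries over 2 lines, both units disagreed in 7 libraries and the genes were left out, which left 22558. Columns with the authors' fold changes and p-values were not used. No 2 libraries of a group were duplicates (lowest chi-square per gene 15).

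Groups followed the labels. Each comparison was fitted on its own 2 groups by edgeR 4.0.16 under R 4.3.3. Genes were filtered by filterByExpr, libraries scaled by TMM, and the quasi-likelihood p-values adjusted after Benjamini and Hochberg over all genes tested. A gene was called at q under 0.05. The scripts were tested on simulated data. Alternatives used DESeq2 1.42.0, limma 3.58.1 with voom, other scalings, filters and pseudocounts, a fold above 2, a fit over all 3 groups, a term for the 7 libraries, a replicate block, and leaving out each mouse. Leaving out the 5 libraries with an H2-DMb1 to H2-DMb2 ratio above 4 was chosen after seeing the data. The genes, lists and marker genes were chosen with earlier results of these data known. All 10 genes, 4 ratios, the genes of each list that passed with the largest change (up to 3), and the 5 genes most like Cd74 and Ciita were named by rule; other list genes, Rps18, Rps18-ps3 and 3 further ratios were named after their values were seen. Python 3.11.15 with pandas 2.3.3 and matplotlib 3.10.9 served for tables and figures. With 13039535 to 17779635 counts a library, genes of few counts (H2-Eb2, Ifng) carry a large counting error. The labels name separate mice. Results for some list genes are not reported here.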

Additional observations from a re-analysis of the deposited data

Results flagged for a closer look

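In 4 of 40 sets of 5 or 6 mice (each of the 10 genes and 4 ratios in each group, where values varied), 1 mouse lay far from the nearest other for the range of its group; chance flags about 1 in 20 such sets. H2-Ab1 was 14.2 FPKM in Ctrl 4, with the next highest Ctrl mouse at 11.0 FPKM. H2-Ea-ps was 90.0 FPKM in Dapa 8, with the next Dapa mouse at 42.3 FPKM. H2-DMb2 was 6.36 FPKM in Dapa 8, with the next at 1.84 FPKM. The ratio of H2-Ea-ps to H2-Eb1 was 0.701 in Dapa 7, the one Dapa library among the 5 that stood apart, with the next at 2.02. The wide spread of the Case group gave no such flag in any gene.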

How the results depend on the processing

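For Case against Ctrl, 5 of 9 genes were called. The count was 9 with edgeR's exact test, 0 with limma on log2(FPKM + 1), 1 on log2(FPKM + 0.1), 0 with voom and sample weights, 3 with a replicate block (5 pairs, without Case 6), 0 in the 12 libraries that did not stand apart, and 3 to 9 when 1 mouse was left out. The labels number Ctrl and Case mice alike, but deviations of same-numbered mice correlated at -0.0479 to -0.0758 and none matched its own number best, so the numbers were not taken as pairs. The count stayed within 1.5 times under 13 of 25 alternatives, and no fold change of the 9 genes changed sign in this comparison or in Dapa against Case. For Dapa against Case (0 called), DESeq2 and edgeR's exact test called 1, and the other 23 alternatives 0. For Dapa against Ctrl (1 called), the count was 2 with DESeq2, the exact test, upper quartile scaling, at least 10 counts in every library or the term for the 7 libraries, 0 with voom, with all 3 groups in one fit or in the 12 libraries, and 0 to 2 when 1 mouse was left out. There, 10 log2 fold changes, none of them called, turned, while leaving out 1 mouse gave H2-Ea-ps -0.12 to 0.56, H2-DMb1 -0.20 to 0.61 and Ciita -0.07 to 0.28. They were H2-Ea-ps from 0.31 to -0.12 without Dapa 8 and -0.10 in the 12 libraries; H2-DMb1 from 0.37 to -0.23 (voom), -0.13 (7-library term) and -0.20 (without Dapa 7); and Ciita from 0.15 to -0.12 (voom), -0.06 (7-library term), -0.07 (without Dapa 7), -0.06 (without Dapa 8) and -0.18 (12 libraries). The cause of these shifts was not tested. The 4 ratios moved by less than 1 SD in each of 80 recomputed values.

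Groups of 5 and 6 with an SD near the mean limit every Case comparison, and strain cannot be separated from diabetes. Counts of H2-Eb2 and Ifng were too few to pass the filter of the main fits.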
